A study of Mus musculus with 8 samples.

Results

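The sequences described here are mouse testis small RNAs that the authors' deposited table annotates to the mRNAs of Abl2 (NM_009595), Arhgap20 (NM_175535) and Cbx5 (NM_001076789). They were taken by accession, and these 3 genes of 17267 mRNA accessions had 6746 of 6246223 distinct sequences at all lengths. Of those, 5983 were 24 to 33 nt long, the size of piRNAs, and made up 0.754% of the 793803 mRNA-annotated sequences of that size. The genes were chosen because they stand among the 10 accessions with most such sequences and because their sequences come from the sense strand, so neither the numbers nor the strand are results. Abl2 ranked 8th with 2019 sequences, Arhgap20 9th with 2001 and Cbx5 10th with 1963. The next accessions were those of Bcam with 1873, Elfn2 with 1777 and Skap1 with 1694.

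The study sequenced size-selected small RNA from testes of Tudor-domain gene mutants. The labels gave 8 groups of 1 library each: tdrd6-KO testes, heterozygous or homozygous, of mice 18 days, 25 days or 6 weeks old, and tdrd1-KO testes, again of either genotype, of embryos at 18.5 days after conception. The deposited list pools them, with 0 of its 3 columns tied to a library, so genotypes and ages could not be compared, the level of the targeted genes could not be checked, and the depth of each library was unknown. The values below count distinct sequences, so a sequence read many times weighs the same as one read once. Intervals are exact 95% binomial (Clopper-Pearson) intervals that cover counting error only, and overlapping fragments of 1 mRNA are not independent, so the values carry no test.

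piRNAs are small RNAs bound by Piwi proteins in germ cells. They mostly begin with U, written T here. In mouse testis one class is cut from long noncoding precursors during meiosis, another targets transposons, and a further class is cut from the sense strand of mRNAs, often from the 3' untranslated region (UTR). The Piwi protein Mili is known to carry shorter piRNAs than Miwi. Abl2 encodes a nonreceptor tyrosine kinase that acts on the actin cytoskeleton. Arhgap20 encodes a protein that activates GTP hydrolysis by small GTPases. Cbx5 encodes heterochromatin protein HP1alpha, which binds methylated histone H3.

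Representative sequences show what the fragments look like. For each gene they start at the 2 sense 5' ends with the most distinct sequences of 24 to 33 nt, and the longest form of at most 30 nt is printed. All 6 are 30 nt long and map to 1 position. The first base is in capitals.
Abl2 at chr1:156644506-156644535: Tgctttagtgaaagctcagggtgagccgag
Abl2 at chr1:156645928-156645957: Tgatggaatccctggtgggatgagagacta
Arhgap20 at chr9:51851172-51851201: Ttttagtgtcctacccacagtccctatgca
Arhgap20 at chr9:51849776-51849805: Atagattgcactttccagacacaaagaaaa
Cbx5 at chr15:103193202-103193231: Tgagttttagtgtttaaaatgcaacttaat
Cbx5 at chr15:103197592-103197621: Tagcacagaagtagccagagctcctgagga
Coordinates are GRCm38, from an exact match to GENCODE M21 transcripts. Abl2 and Arhgap20 lie on the plus strand and Cbx5 on the minus strand, and each sequence is written 5' to 3' along the mRNA. The 4 Abl2 and Cbx5 sequences lie in the 3' UTR, in the last exon (exon 13 of Abl2, exon 5 of Cbx5). Of the Arhgap20 sequences, the one starting with T lies in the 3' UTR and the one starting with A in the coding sequence, both in exon 15, the last. At the T end of Arhgap20, 10 distinct sequences shared the 5' end, 1 for each length from 24 to 33 nt. At its A end there were 8, from 25 to 32 nt. The Abl2 ends had 7 each and the Cbx5 ends 8 and 7.

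The deposited gene names stood for exonic sequences in all 3 cases, and the sense strand was part of the choice. Of the Abl2 sequences of 24 to 33 nt, 2015 of 2019 matched a sense exon exactly (99.8%, 99.5 to 99.9). Of the Arhgap20 sequences 1994 of 2001 did (99.7%, 99.3 to 99.9), and of the Cbx5 sequences 1934 of 1963 (98.5%, 97.9 to 99.0). All but 1 of the 5983 mapped to 1 position by the deposited map number, the exception being an Arhgap20 sequence. No Abl2 or Cbx5 sequence matched a transcript of another gene, while 7 Arhgap20 sequences did, including transcripts of the antisense gene Arhgap20os. Of the Cbx5 sequences, 28 matched no transcript, against 4 for Abl2 and 3 for Arhgap20, and allowing 1 mismatch added 0 sense matches in each gene. Introns were not searched. The spliced transcript used for positions was Abl2-202 (10151 nt, chromosome 1, 156558987 to 156649568), Arhgap20-201 (7161 nt, chromosome 9, 51765352 to 51853856) and Cbx5-202 (8803 nt, chromosome 15, 103191544 to 103239816). For Abl2, the shorter coding transcript Abl2-201 (3549 nt), which nearly lacks UTRs and which GENCODE pairs with the accession, held 64 of the 2290 sequences of all lengths and Abl2-202 held 2272.

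Arhgap20 differed from the other genes in the length of its sequences. Its most frequent length was 30 nt, with 424 sequences (21.2%), followed by 29 nt with 361. In Abl2 the most frequent length was 27 nt, with 448 sequences (22.2%), and 158 were 30 nt long. In Cbx5 it was also 27 nt, with 403 sequences (20.5%), and 202 were 30 nt long. The mean length was 28.6 nt (SD 2.10 over 2001 sequences) in Arhgap20, 27.1 nt (SD 1.87 over 2019) in Abl2 and 27.5 nt (SD 1.958 over 1963) in Cbx5, beside 27.2 nt (SD 1.87) over all mRNA-annotated sequences. Sequences of 29 to 31 nt formed 50.9% (48.7 to 53.1) of Arhgap20, 28.5% (26.5 to 30.6) of Cbx5 and 20.7% (19.0 to 22.5) of Abl2, and 20.7% (20.6 to 20.8) of all mRNA sequences. Abl2 thus lay at the share of all mRNA sequences, and the Cbx5 interval lay above it. For 25 to 27 nt the order was the reverse, with 55.7% (53.5 to 57.9) in Abl2, 50.2% (47.9 to 52.4) in Cbx5 and 26.1% (24.2 to 28.1) in Arhgap20.

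**Figure D1:**
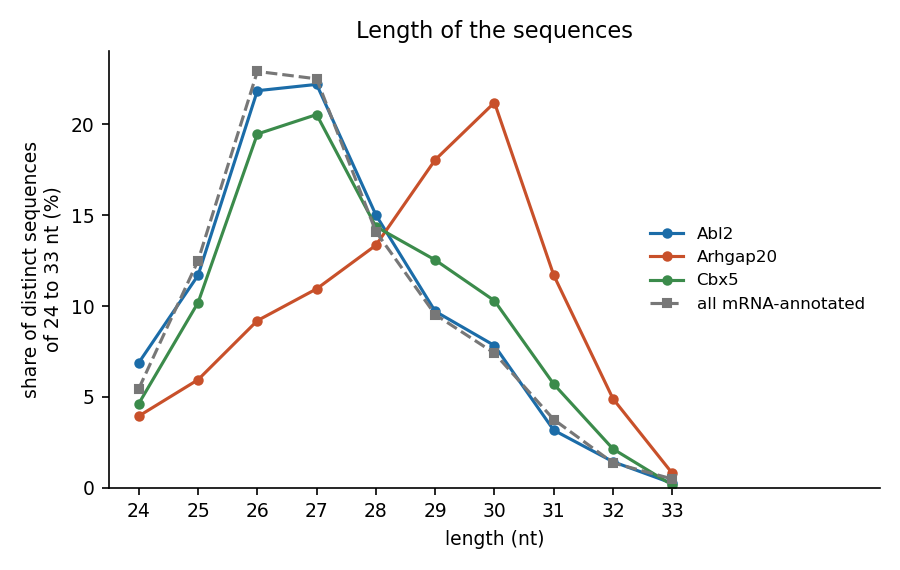
Share of the distinct sequences of 24 to 33 nt (y, %) at each length (x, nt) for the 3 genes (solid lines) and all mRNA-annotated sequences (dashed line). Abl2 and Cbx5 are highest at 27 nt and all mRNA sequences at 26 nt, while Arhgap20 is highest at 30 nt.

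The long form was not limited to 5' ends with many sequences. On its transcript, 475 of the 910 Arhgap20 5' ends carried 1 sequence, and 51.8% (47.2 to 56.4) of these single sequences were 29 to 31 nt long. The corresponding shares were 15.9% (13.2 to 18.8) of 675 single sequences in Abl2 and 26.1% (22.9 to 29.4) of 714 in Cbx5. Many 5' ends carried both sizes. Among those with at least 2 sequences, one of 25 to 27 nt and one of 29 to 31 nt occurred together at 221 of 435 (50.8%, 46.0 to 55.6) in Arhgap20, 192 of 475 (40.4%, 35.97 to 44.99) in Abl2 and 194 of 428 (45.3%, 40.5 to 50.2) in Cbx5. The transcripts had 2.19, 1.75 and 1.68 sequences per 5' end in the same order, and the part of this in the shares was not tested. Within Arhgap20 the mean length was 28.8 nt (SD 1.95) for the 330 sequences that started in the coding sequence and 28.5 nt (SD 2.12) for the 1662 in the 3' UTR. When the 3' UTR was cut into 3 equal parts, sequences of 29 to 31 nt formed 45.4% (42.4 to 48.4) of 1069 in the first, 56.9% (52.8 to 61.0) of 576 in the second and 76.5% (50.1 to 93.2) of only 17 in the last. The same shares in Abl2 were 22.3%, 22.0% and 18.6%, with overlapping intervals, and in Cbx5 28.1% (23.9 to 32.7), 24.9% (21.05 to 29.06) and 32.8% (29.7 to 35.9), where the intervals of the second and last parts did not overlap.

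T was the most frequent first base in each gene, least so in Arhgap20. It began 1634 of 1963 Cbx5 sequences (83.2%, 81.5 to 84.9), 1639 of 2019 Abl2 sequences (81.2%, 79.4 to 82.9) and 1448 of 2001 Arhgap20 sequences (72.4%, 70.3 to 74.3). All mRNA sequences had 78.4% (78.3 to 78.5), so Abl2 and Cbx5 lay above that share and Arhgap20 below it. In Arhgap20 the next base was A with 12.99% (11.6 to 14.5), against 7.68% (6.55 to 8.93) in Abl2 and 7.54% (6.41 to 8.80) in Cbx5. The low share in Arhgap20 was most marked in its short sequences. T was first in 63.0% (58.7 to 67.2) of those of 25 to 27 nt and 78.5% (75.9 to 81.0) of those of 29 to 31 nt. In Abl2 the shares were 78.7% (76.2 to 81.0) and 86.8% (83.2 to 89.9). In Cbx5 they were 82.3% (79.8 to 84.7) and 86.1% (82.9 to 88.8), with overlapping intervals, and over all mRNA sequences 78.8% and 80.5%. The T share is tied to how sequences were counted. With each 5' end, defined by its first 20 nt, counted once, T was first at 75.5% of the 1174 Cbx5 ends, 72.8% of the 1161 Abl2 ends and 61.8% of the 918 Arhgap20 ends, in the same order. No share by 5' end is given for all mRNA sequences, so the comparison with their 78.4% holds for distinct sequences only.

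The mRNA sequence itself was less rich in T than the 5' ends. T made up 28.9% of the Abl2 3' UTR, 31.1% of that of Arhgap20 and 32.5% of that of Cbx5. Of the T positions in the 3' UTR, 40.4% (38.2 to 42.6) of 1981 in Abl2, 40.1% (37.1 to 43.1) of 1075 in Arhgap20 and 30.6% (28.9 to 32.4) of 2630 in Cbx5 served as the 5' end of at least 1 sequence of the accession. Sequences with a repeat name or no annotation were not counted, though the positions under them were. Those mapping to 1 position numbered 446 on the Cbx5 transcript, 58 on that of Abl2 and 17 on that of Arhgap20. Their part in the lower Cbx5 share was not tested. Of the positions with another base, 11.3% (10.01 to 12.6) were used in Arhgap20, 6.10% (5.44 to 6.81) in Abl2 and 4.72% (4.17 to 5.32) in Cbx5. Over the whole 3' UTR, Arhgap20 and Abl2 thus had about the same use of T, and Arhgap20 had higher use of the other bases. The Arhgap20 shares include the positions of its final 841 nt, which lie beyond the last 5' end of the accession. In Abl2 this end stretch was 61 nt. Whether the use of T was also alike without these stretches was not tested. In Arhgap20, G was used at 13.4% (10.9 to 16.2) of its positions, A at 11.6% (9.72 to 13.7) and C at 8.71% (6.73 to 11.1).

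**Figure D2:**
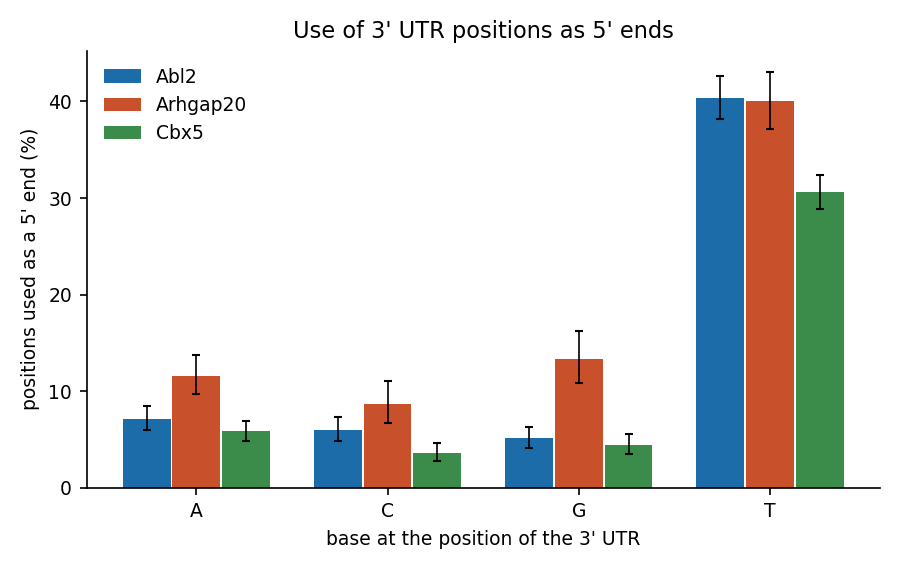
Share of the 3' UTR positions of each base (x) that serve as the 5' end of at least 1 sense sequence of 24 to 33 nt (y, %), for the 3 genes, with exact 95% intervals as error bars. Only sequences with the accession of the gene are counted. The T bars stand at 40.4% in Abl2, 40.1% in Arhgap20 and 30.6% in Cbx5, and for A, C and G the Arhgap20 bars are the highest.

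A second base feature, A at position 10, is left when a piRNA is made by cleavage opposite a partner that begins with U. It was found in 27.3% (25.4 to 29.3) of Abl2, 27.7% (25.8 to 29.8) of Arhgap20 and 27.7% (25.7 to 29.8) of Cbx5 sequences, beside 25.8% (25.7 to 25.9) over all mRNA sequences. The 3 intervals overlapped each other. A made up 24.4%, 29.6% and 25.2% of the respective 3' UTRs.

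The sequences were laid down mainly on the 3' UTR, in a different pattern on each mRNA. In Abl2, 1954 of 2008 placed sequences (97.3%, 96.5 to 98.0) started in the 3' UTR, which is 67.5% of the transcript. The coding sequence, 31.9% of the transcript, had 54 sequences, and the 62 nt of 5' UTR had 0. The density was 285 sequences per kb in the 3' UTR and 16.7 in the coding sequence. In Arhgap20, 1662 of 1993 placements (83.4%, 81.7 to 85.0) started in the 3' UTR, which is 48.3% of the transcript, and 330 (16.6%, 14.95 to 18.3) in the coding sequence, with 481 and 93.0 per kb. In Cbx5 the 3' UTR had 1805 of 1922 (93.9%, 92.7 to 94.9), close to its 92.0% of the length, and its density of 223 per kb stood beside 177 per kb for the 102 sequences of the short coding sequence and 115 per kb for the 15 of the 5' UTR. The contrast between 3' UTR and coding sequence was therefore widest in Abl2 and narrowest in Cbx5.

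Along the transcript, Arhgap20 was the most compact. Its sequences started from position 142 to 6320, counted from 1 at the transcript start, and 80% of them lay between 3205 and 5310, from the last part of the coding sequence, which ends at 3704, into the 3' UTR. The richest window of 250 nt, positions 4361 to 4610 in the 3' UTR (chromosome 9, 51851056 to 51851305, exon 15), held 397 sequences (19.9%), a density of 1588 per kb. In Abl2 the richest window, 6352 to 6601 (chromosome 1, 156645769 to 156646018, exon 13), held 155 (7.72%), and in Cbx5 that at 7405 to 7654 (chromosome 15, 103192693 to 103192942, exon 5) held 187 (9.73%). In Abl2, 80% of the starts lay between 4668 and 9047, and in Cbx5 between 1317 and 7742. The final 841 nt of Arhgap20-201 held 0 starts of sequences of the accession, while the last Abl2 and Cbx5 starts lay 61 and 34 nt from the transcript end.

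**Figure D3:**
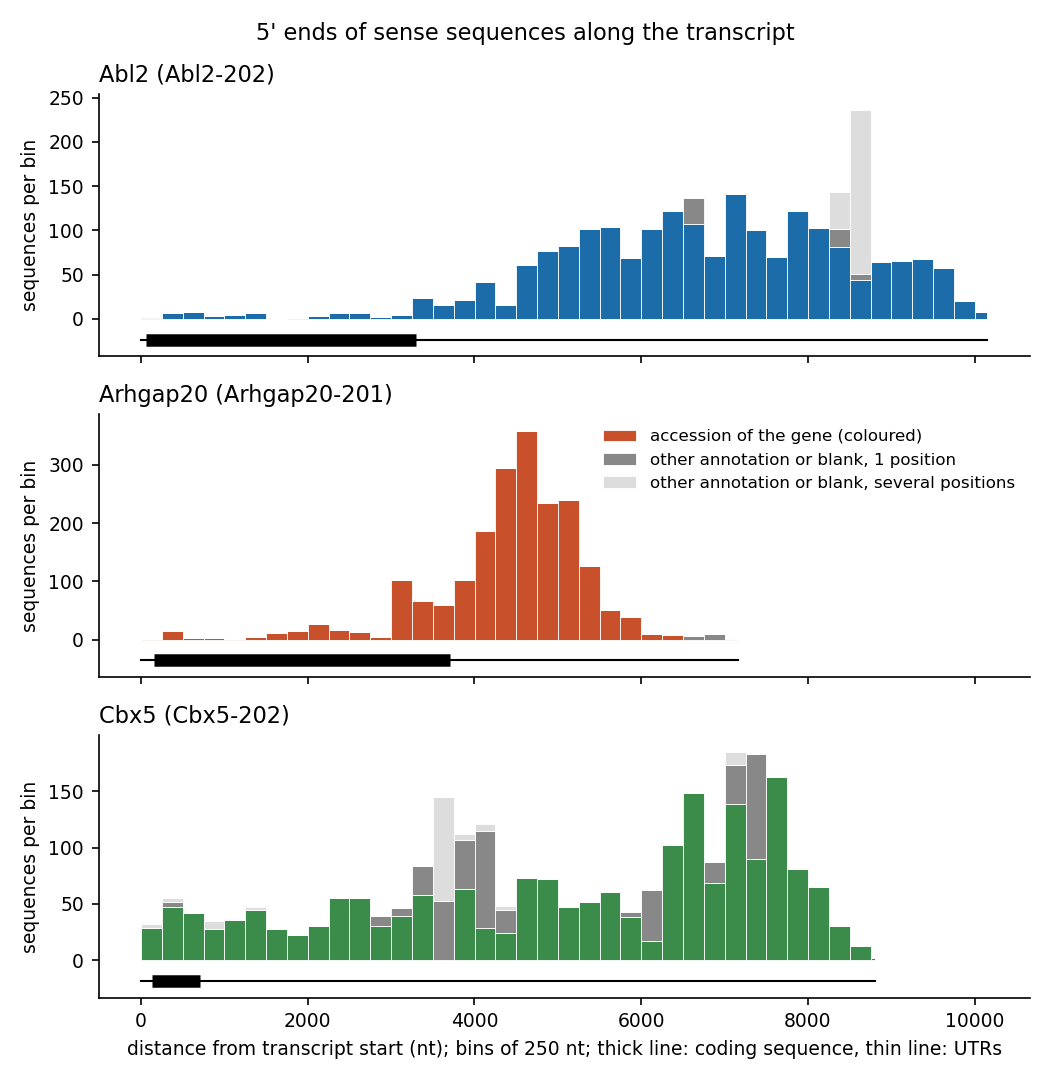
Number of sense sequences of 24 to 33 nt (y) by the position of their 5' end (x, nt from the transcript start) in bins of 250 nt, the last bin of each transcript being shorter. Coloured bars carry the accession of the gene, dark grey bars another annotation or none with 1 map position and light grey bars the same with several positions; the black line shows the transcript with the coding sequence thick. Arhgap20 is highest at 4501 to 4750 with 358 sequences, while Abl2 and Cbx5 extend to the transcript end.

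Much of each 3' UTR was covered. Sequences of the accession covered 90.5% of the Abl2 3' UTR, 78.7% of that of Cbx5 and 72.6% of that of Arhgap20. The coding sequence was covered to 30.6%, 90.1% and 60.8%, respectively. A base of the 3' UTR was overlapped by at most 36 distinct sequences in Abl2, 42 in Cbx5 and 87 in Arhgap20. There were 2.18 sequences per 5' end in Arhgap20, 1.74 in Abl2 and 1.67 in Cbx5, against a median of 1.59 over 67 comparable accessions with at least 500 sequences of 24 to 33 nt. The genes were chosen for many sequences, and the part of this choice in the sequences per 5' end was not tested. On the transcripts, 3' ends were more varied than 5' ends. There were 1216 distinct 3' ends beside 910 5' ends in Arhgap20, 1558 beside 1150 in Abl2 and 1534 beside 1142 in Cbx5.

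Gaps in the Abl2 and Cbx5 maps coincided with sequences that the deposited list gives to repeats. The longest stretch without a 5' end of the accession in the Cbx5 3' UTR was 354 nt, from 3429 to 3784, and the bin from 3501 to 3750 held 0 sequences of the accession and 145 others. In all, 580 further sequences of 24 to 33 nt matched the sense strand of Cbx5-202, of which 559 carried repeat names and 21 none. Of the 580, 446 mapped to 1 position. B2_Mm2, a SINE, had 112 sequences (22 with 1 position), B3 had 95 (86), MTE-int of the MaLR retrotransposons had 93 (all 93), B1_Mur1 had 62 (61) and B1_Mus1 had 58 (52). The 446 began with T in 77.4% (73.2 to 81.2) of cases, below the 83.2% (81.5 to 84.9) of the Cbx5 accession. The same 446 were 27.5 nt long on average (SD 2.08), with 27.4% (23.3 to 31.7) at 29 to 31 nt, close to the 28.5% of the Cbx5 accession. With all annotations, coverage of the Cbx5 3' UTR was 94.1%.

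In Abl2 the corresponding gap was 206 nt, from 8442 to 8649, and sequences with B1 SINE names started between 8445 and 8612. Of 285 further sense sequences on Abl2-202, all with repeat names, 58 mapped to 1 position, and the median map number of the 285 was 23775, so most cannot be assigned to Abl2. B1_Mus1 had 108 of them, 23 with 1 position, and MIR, an old SINE, had 30, all with 1 position. Arhgap20 had no repeat-named sense sequence. It had 17 without annotation, all with 1 position and all between 6569 and 7017, downstream of the last sequence of the accession. Whether these belong to the same transcript was not tested. Other accessions of the same genes added little. NM_007626 of Cbx5 had 3 sequences of 24 to 33 nt, and NM_001136104 of Abl2 and NM_001110216 and NM_001358950 of Cbx5 had 0.

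Sense origin was a criterion in choosing the genes, so the opposite strand is only described. Of all 24 to 33 nt sequences in the list, whatever their annotation, 2 matched the antisense strand of Arhgap20-201, both with 1 position and the Arhgap20 accession. On Abl2-202 there were 169 and on Cbx5-202 19, all named as repeats and 0 with 1 position. Partners overlapping by 10 nt at their 5' ends are the trace of reciprocal (ping-pong) cleavage. At 24 to 33 nt, rows of the accessions held 0 antisense sequences for Abl2, 2 for Arhgap20 and 1 for Cbx5. The Cbx5 sequence, 26 nt long, matched the antisense strand of Cbx5-203 and Cbx5-204 but not of Cbx5-202. With so few antisense sequences, these rows alone cannot show whether such partners occur. When sequences of every annotation were counted on both strands, 19 of 1245 Abl2 ends (1.53%) had a partner at 10 nt, within the range of 1.45% to 2.17% at the other overlaps, and 6 of 1426 Cbx5 ends (0.421%), within 0.0701% to 0.631%. In Arhgap20, 0 of 925 ends had one. The Abl2 and Cbx5 antisense sequences all had repeat names and 0 had 1 position, so these partners cannot be assigned to the 2 genes.

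Head-to-tail arrangement, in which the next 5' end follows a 3' end directly as after stepwise cutting of a precursor, did not stand apart at 1 nt. In Abl2, 18.4% (16.5 to 20.4) of 1558 3' ends were followed at a distance of 1 nt, against a mean of 18.6% (SD 0.951) over distances of 2 to 20 nt. In Cbx5 the values were 18.5% (16.6 to 20.5) of 1534 and 18.0% (SD 0.737), and in Arhgap20 28.9% (26.4 to 31.6) of 1216 and 30.3% (SD 0.733). The value at 1 nt lay within the range over the longer distances in Abl2 (17.0% to 20.6%) and Cbx5 (16.8% to 19.6%) and just below it in Arhgap20 (29.03% to 31.6%). The higher level in Arhgap20 held at all 20 distances, beside 910 5' ends on 7161 nt against 1150 on 10151 nt in Abl2 and 1142 on 8803 nt in Cbx5, and the part of this density in it was not tested. The base after a 3' end was T for 28.98% (26.7 to 31.3) of the 3' ends in the Abl2 3' UTR, 28.1% (25.3 to 31.1) in Arhgap20 and 30.4% (28.0 to 32.8) in Cbx5, and each interval included the T content of that UTR. Each end was counted once, without read numbers, and whether the mRNAs were cut stepwise was not tested.

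**Figure D4:**
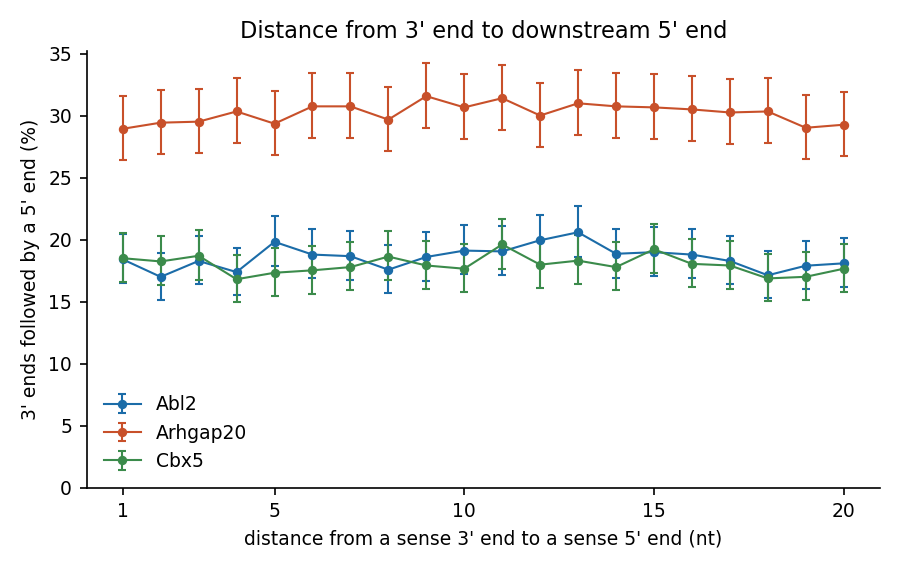
Share of distinct sense 3' ends that are followed by a sense 5' end (y, %) at each distance (x, nt, 1 being the next base), with exact 95% intervals as error bars. Over all distances Abl2 runs from 17.0% to 20.6%, Cbx5 from 16.8% to 19.6% and Arhgap20 from 28.9% to 31.6%, with no peak at 1 nt.

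The genes were next placed among comparable accessions. Of the 137 accessions with at least 500 sequences of 24 to 33 nt, 67 had a symbol and at least 90% of their sequences with 1 position on sense exons of that gene. Among these, Arhgap20 had the second highest mean length after Braf, a kinase gene with 28.7 nt over 597 sequences, and 10 of the 67 had a modal length of 30 nt. The median of the 67 mean lengths was 27.5 nt, near that of Cbx5, which ranked 32nd, while Abl2 ranked 50th. In the share with T first, Cbx5 ranked 17th, Abl2 35th and Arhgap20 63rd, around a median of 81.2%. In sequences per 5' end Arhgap20 ranked 7th, Abl2 21st and Cbx5 28th. In the share that started in the 3' UTR, Abl2 ranked 7th, Cbx5 14th and Arhgap20 36th. The ranks are descriptions with no test.

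**Figure D5:**
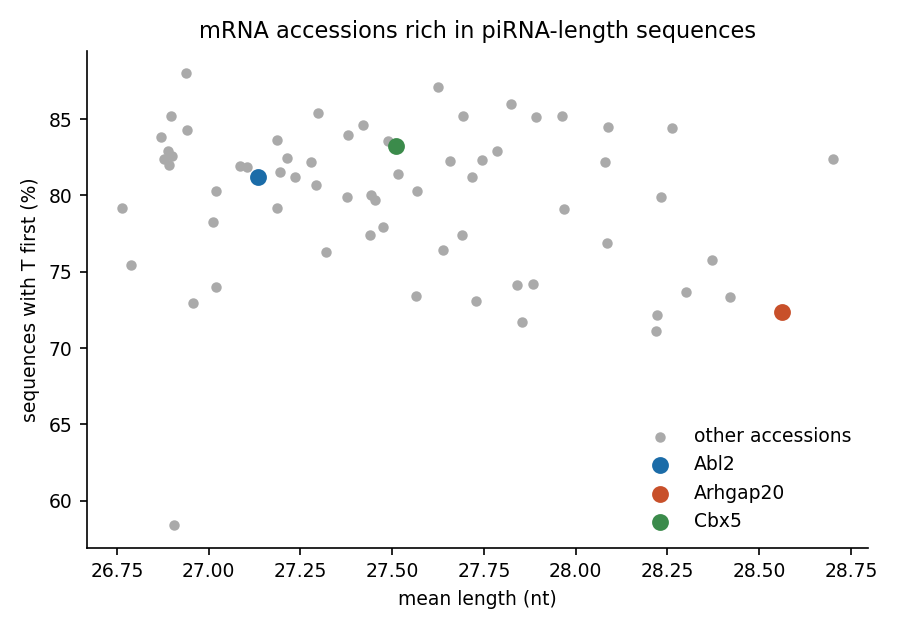
Mean length (x, nt) and share of sequences with T first (y, %) for 67 mRNA accessions with at least 500 sequences of 24 to 33 nt that match the named gene, 1 point each. Arhgap20 lies at the right, at 28.6 nt and 72.4%, while Abl2 and Cbx5 lie among the other accessions.

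Likeness in length was measured as total variation distance, the percentage of sequences that would have to change length for 2 length distributions to be equal. Abl2 and Cbx5 were 8.53% apart, Abl2 and Arhgap20 34.2% and Cbx5 and Arhgap20 25.8%. Of the 66 other accessions, Arhgap20 was nearest to Ipmk, an inositol polyphosphate kinase gene, at 5.31%, and to Braf at 5.80%, with a median of 25.5%. Abl2 was nearest to Cbfa2t2, at 3.08%, with a median of 10.6%, and Cbx5 to Gna13, which encodes a G-protein subunit, at 3.02% and to Aff4 at 3.96%, with a median of 11.6%.

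Sequences were also counted for 3 gene lists, of HP1 and its partners, of the Abl kinases with their substrates and partners, and of the Arhgap family and its GTPases, by deposited annotation at 24 to 33 nt. Over 15835 genes with a symbol and at least 1 sequence the median was 21, and 10.4% had 100 or more. The median of each list, without the gene described here, lay above 21. Of 20 genes of HP1 and its partners, all had sequences, and the 19 besides Cbx5 had a median of 43. Dnmt3a, a DNA methyltransferase gene, had 1072 and Trim28, which encodes a corepressor that binds HP1, had 216. The HP1 paralogs Cbx1 and Cbx3 had 65 and 9, the latter the lowest of the list. Of 22 genes of the Abl kinases, their substrates and partners, all had sequences, with a median of 48 for the 21 besides Abl2. The adaptor gene Crkl had 570, the ubiquitin ligase gene Cbl 537, the paralog Abl1 174 and Dok2, the lowest, 5. Of 37 genes of the Arhgap family and its GTPases, 36 had sequences, and the 36 besides Arhgap20 had a median of 36. Arhgap35, which encodes a GTPase-activating protein that Abl2 phosphorylates and stands in both lists, had 354, and Arhgap22 had 202, while Arhgap42 had 0. In these lists 4 of 19, 8 of 21 and 3 of 36 genes besides the 3 described had 100 or more sequences. The HP1 and Abl shares lay above the 10.4% of all genes with a sequence, and the Arhgap share lay below it. The lists were chosen with earlier results known, and their genes were not matched for mRNA level or UTR length.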

How the data were processed

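Total RNA of testes was size selected to 19 to 33 nt, per the labels' protocols, in 8 libraries. The authors deposited 1 table of distinct sequences, each with its number of map positions and a final annotation, per the file headers. Aligner, genome build, annotation sources and filters are not given in the sources used here. The members and gene lists were chosen with earlier results of these data known.

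Rows were selected by accession. The main window was 24 to 33 nt and the alternative 25 to 32 nt. Whole sequences were searched, without mismatch, on either strand of 141767 spliced GENCODE M21 transcripts (GRCm38). Each gene was represented by 1 transcript with both UTRs, that with the longest coding sequence (stop codon included). Symbols came from the RefSeq table of GRCm38.p6. Intervals were computed with scipy 1.17.1 in Python 3.11.15. Matching and end counting were tested on simulated data. Named beside the members were the accessions ranked 8th to 13th, the genes with most and with fewest sequences of each list (with the HP1 and Abl paralogs added after their values were seen) and the 2 accessions nearest in length distribution, of which 1 is not reported here. The intervals cover counting error only, since the libraries are pooled and overlapping fragments of 1 mRNA are not independent. Reads were amplified by PCR, and each distinct sequence was counted once.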

Additional observations from a re-analysis of the deposited data

Results flagged for a closer look

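Sequences outside 24 to 33 nt carried the same accessions and were used in no comparison above. At 19 to 23 nt there were 228 sequences for Abl2, 234 for Arhgap20 and 172 for Cbx5. T was first in 60.5% (53.9 to 66.9), 40.6% (34.2 to 47.2) and 54.1% (46.3 to 61.7) of them, lower than in the longer sequences of each gene, and again lowest in Arhgap20. A longer sequence of the same gene, within 24 to 33 nt, began with the whole short sequence for 115 of the 228 in Abl2, 132 of the 234 in Arhgap20 and 86 of the 172 in Cbx5. At 15 to 18 nt, below the labelled size range, there were 42 for Abl2, 45 for Arhgap20 and 33 for Cbx5, of which 14.3%, 35.6% and 21.2% began with T. Above the labelled range, at 34 nt, Arhgap20 had 7 sequences, against 1 each for Abl2 and Cbx5.

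Sense sequences of another annotation or none that mapped to 1 position numbered 446 on Cbx5-202, 58 on Abl2-202 and 17 on Arhgap20-201. Samples could not be compared in a pooled list.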

How the results depend on the processing

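No paired analysis was possible because the deposited list pools all libraries and each group had 1 library. Of 81 alternative values for 30 results, 68 stayed within the interval of the value reported or, for counts and for sequences per 5' end, within 1.5 times it. Some of the 68 could not move. All Abl2 and Cbx5 sequences mapped to 1 position and matched no other gene, and each transcript used was already the longest of its gene. The other 13 were as follows. With each 5' end counted once, T was first in 72.8% of Abl2, 61.8% of Arhgap20 and 75.5% of Cbx5 ends, starts in the 3' UTR were 95.4% in Abl2 and 76.8% in Arhgap20, and the mean length in Cbx5 was 27.4 nt. With 25 to 32 nt, the mean length was 27.4 nt in Abl2, 28.7 nt in Arhgap20 and 27.7 nt in Cbx5, and 100% of Arhgap20 sequences mapped to 1 position. With T first only, the mean length in Arhgap20 was 28.8 nt. With all deposited sequences on sense exons, partners at 10 nt were found for 1.53% of Abl2 and 0.421% of Cbx5 ends. The order of the 3 genes in mean length and in the share with T first was the same under every alternative run. The alternatives for mean length by 5' end and with T first, and that for 3' UTR starts with all sequences of 1 map position, were chosen after seeing the data. Unknown read numbers limit all values: a sequence read once counts as much as one read often.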
